A study of Mus musculus with 9 samples.

Results

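Gapdh, Pgk1, G6pd2 and Ldhal6b are 4 genes named for enzymes of glucose use, and they are 4 of the 16 genes that could be named on an array of mouse liver RNA. They were read by 7 probes. Gapdh, G6pd2 and Ldhal6b each had 1 custom probe, identified by its RefSeq accession and spotted 20 times. Gapdh and Pgk1 were also read by the array maker's control probes, 1 for the 5′ end and 1 for the 3′ end of each transcript, spotted 10 times each. The rule for the members used probe identity and no values, though it was set with earlier results of these data known.

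The arrays compared 3 groups of 3 liver samples, with 1 array per sample. Livers and tumours counted below stand for these samples. Fetal liver came from embryos at day 17.5, with sex not given. Adult liver came from males aged 2 months. Liver cancer was tumour tissue of males aged 1 year in which the carcinogen DEN (diethylnitrosamine) had been used to induce tumours, so that age, carcinogen and tumour cannot be told apart against adult liver. The labels call the samples of a group independent without naming animals, strain or litters, so the p-values speak of the spread among these samples, which may be technical.

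Glycolysis breaks glucose down to pyruvate. GAPDH, glyceraldehyde-3-phosphate dehydrogenase, and PGK1, phosphoglycerate kinase, carry out consecutive steps of its later phase, and both enzymes also run in reverse when the liver makes glucose. Lactate dehydrogenases interconvert pyruvate and lactate at the end of the pathway, and Ldhal6b is named for its similarity to the gene of one of them. Glucose-6-phosphate dehydrogenase opens the pentose phosphate pathway, a branch that supplies NADPH and ribose for making lipids and nucleotides, and G6pd2 is an intronless autosomal copy of the X-linked gene G6pdx for this enzyme.

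Levels are log2 processed signals relative to the 75th percentile of the array, so that a step of 1 is a doubling, and they are compared between groups and never between probes. All 7 probes were well above background on all 9 arrays by most of their unmarked spots, and 0 spots on the arrays were saturated. For Ldhal6b, 12 of 16 unmarked spots on fetal liver 1 and 15 of 19 on fetal liver 3 were well above background. The arrays came from 2 scans per the file headers. All fetal and adult arrays were read in the first together with liver cancer 1, while the second held liver cancer 2 and 3. The first-scan arrays had 40.5% to 54.8% of their probes above background, and the 75th percentile lay between 6.46 and 7.55 in log2 signal. Liver cancer 2 and 3 had 69.3% and 67.8% of probes above background and 75th percentiles of 8.68 and 8.47. Differences from liver cancer are set beside the values of the first scan, in which the tumours have a single array and limma takes its spread from the other groups.

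Probe letters were not used here. The 120 bases before the start of each gene, from the RefSeq promoter table (build GRCm38.p6, 4 of 4 members matched), are written 5′ to 3′ along the gene's strand. Capitals mark the TATA-type motif TATAAA or its reverse TTTATA; the GC box GGGCGG or its reverse CCGCCC was searched too.
Gapdh, chr6:125165774-125165893, minus strand: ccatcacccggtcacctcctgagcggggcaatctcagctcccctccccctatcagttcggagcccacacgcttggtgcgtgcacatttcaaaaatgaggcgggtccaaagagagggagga
Pgk1, chrX:106186980-106187099, plus strand: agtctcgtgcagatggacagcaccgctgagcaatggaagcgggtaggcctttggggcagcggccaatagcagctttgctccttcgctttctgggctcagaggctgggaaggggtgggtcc
G6pd2, chr5:61808723-61808842, plus strand: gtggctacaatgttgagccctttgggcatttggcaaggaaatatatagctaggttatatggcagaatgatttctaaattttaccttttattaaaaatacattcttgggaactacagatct
Ldhal6b, chr17:5418768-5418887, minus strand: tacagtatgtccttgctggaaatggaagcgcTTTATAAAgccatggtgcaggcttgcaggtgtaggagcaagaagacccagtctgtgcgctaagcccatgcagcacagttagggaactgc

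The stretches before Gapdh and Pgk1 were 60.0% and 61.7% G or C and held 6 and 5 CpG pairs. That before Ldhal6b was 51.7% G or C with 2 CpG pairs, and that before G6pd2 was 34.2% with 0. Over 32817 such windows the medians were 54.2% and 3 CpG pairs. The TATA motif was present in 6.35% of these windows and, among the members, before Ldhal6b, where its forward and reverse forms overlap. Hits were counted anywhere in the 120 bases, without regard to distance from the gene start. Before Ldhal6b the motif lies nearer the far end of the stretch than the gene start. The GC box was present in 26.5% of windows and in none of these 4 stretches. The arrays measured RNA levels and no binding or methylation at these sites. The 300-base windows of G6pd2 and G6pdx, which reach past the gene start, shared a run of 27 identical bases, against runs of 7 to 11 bases between any other pair among the 4 genes and G6pdx.

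Gapdh was bright on every array and its group differences did not pass the test. Its custom probe stood at 10.32, 10.03 and 10.38 in the fetal livers, at 10.61, 10.58 and 10.59 in the adult livers, and at 10.79, 9.33 and 9.43 in the tumours. The adult livers lay within a few hundredths of each other. Fetal livers all lay below them, and liver cancer held both the highest level (replicate 1) and the lowest (replicates 2 and 3).

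Fetal minus adult liver was -0.36 ± 0.36 (SE, n = 3 per group, limma adjusted p = 0.459) for Gapdh. Liver cancer minus adult liver was -0.75 ± 0.36 (limma adjusted p = 0.146), and within the first scan it was 0.20 ± 0.19 (limma adjusted p = 0.524). The sign against fetal liver also depended on the arrays, at -0.39 ± 0.36 (limma adjusted p = 0.398) over all arrays and 0.55 ± 0.19 (limma adjusted p = 0.0551) within the first scan. Without liver cancer 1 the difference from adult liver reached -1.22 and passed (limma adjusted p = 0.000443). Under quantile normalization fetal minus adult liver changed sign to 0.18, so Gapdh has no settled direction here. Other bright probes moved with it. For the brightest 1% of tested probes (342 probes), the median was 0.29 above adult liver in liver cancer 1. It was -0.79 and -0.69 relative to adult liver in liver cancer 2 and 3, and -0.41 for the mean of the fetal livers. The median of all tested probes lay within 0.10 of 0 on each of these tumour arrays, and at -0.02 for the fetal livers.

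**Figure D1:**
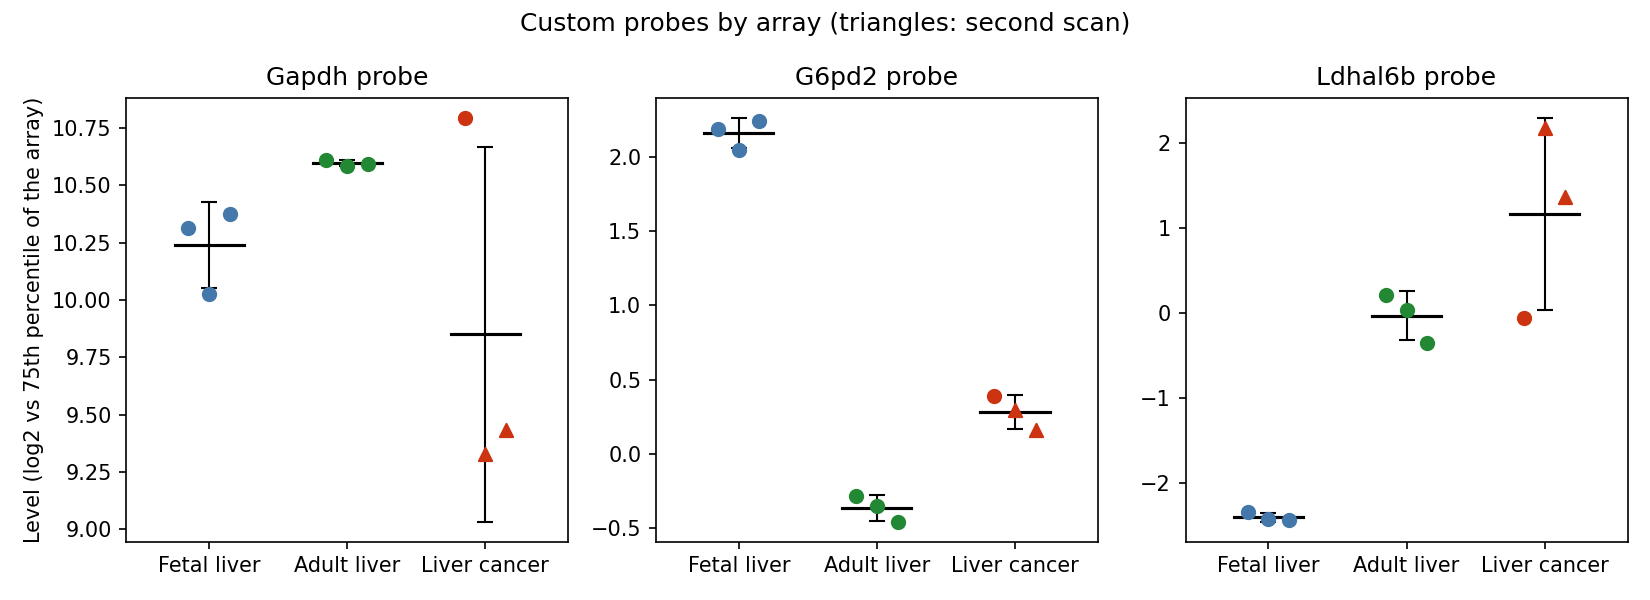
Levels of the Gapdh, G6pd2 and Ldhal6b custom probes on each array (y axis, log2 relative to the array's 75th percentile), by group; circles are arrays of the first scan, triangles of the second, bars the mean ± SD of 3 arrays. The 3 fetal livers are highest for G6pd2, from 2.05 to 2.25, and lowest for Ldhal6b, from -2.44 to -2.34.

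The 3′ control probe of Gapdh repeated the pattern of the custom probe, with a root mean square difference of 0.04 between their centred levels over the 9 arrays. It read 9.89, 9.65 and 9.96 in the fetal livers, 10.14, 10.14 and 10.10 in the adult livers, and 10.34, 8.90 and 9.05 in the tumours. The 5′ control probe read 9.11, 8.93 and 9.19 in the fetal livers, 8.98, 8.91 and 8.91 in the adult livers, and 8.74, 7.61 and 7.72 in the tumours. All 3 tumours thus lay below all 6 other livers at the 5′ end, with a mean difference of -0.91 from adult liver, and the 3′ end did not separate them. The exact permutation test (two-sided, 3 arrays against 3) gave p = 0.1 for the 5′ end, the smallest it allows. With the control probes in the limma table, the 5′ difference from fetal liver passed (-1.05, limma adjusted p = 0.0142) and that from adult liver missed the 2-fold minimum for a call (limma adjusted p = 0.0428). Within the first scan these differences were -0.34 and -0.20, and neither passed. With normexp background correction they were -0.47 (exact permutation p = 0.3) and -0.38 (exact permutation p = 0.2), so that the tumours no longer lay apart.

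Among the 4 mouse control probes the largest difference belonged to Pgk1, and it lay at the 5′ end of the transcript in liver cancer. The 5′ probe read 3.26, 3.19 and 3.46 in the fetal livers, 3.41, 3.41 and 3.42 in the adult livers, and 1.58, 0.51 and 0.51 in the tumours. Fetal and adult livers overlapped and lay close together, and the 3 tumours stood far below both. Liver cancer was 5.85-fold lower than adult liver (-2.55 log2) and 5.42-fold lower than fetal liver (-2.44), each with an exact permutation p of 0.1, the smallest possible, and 0.138 after Benjamini-Hochberg adjustment over the 18 control probe comparisons. When the control probes were added to the table of all tested probes, both differences passed (limma adjusted p = 0.000273 and 0.000106). They also passed within the first scan, at -1.83 ± 0.17 (limma adjusted p = 0.00105) and -1.72 ± 0.17 (limma adjusted p = 0.000382). The difference from adult liver was -2.54 from unmarked spots on the left side of the array and -2.56 from those on the right.

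The 3′ probe of Pgk1 gave smaller differences. It read 8.09, 7.87 and 8.17 in the fetal livers, 8.50, 8.52 and 8.45 in the adult livers, and 8.07, 6.99 and 7.12 in the tumours. Adult livers were highest, and liver cancer 1 fell inside the fetal range. Liver cancer was 2.14-fold lower than adult liver (-1.10, exact permutation p = 0.1; limma adjusted p = 0.0184 with the control probes in the table), but the difference was -0.42 within the first scan (limma adjusted p = 0.156) and -0.61 with normexp (exact permutation p = 0.2). Against fetal liver the difference was -0.65 over all arrays, which did not pass, and 0.03 within the first scan. This probe and the 5′ probe of Gapdh are bright, at percentiles 98.24 to 99.47 and 98.9 to 99.76 of the arrays. For the brightest 1% of tested probes the median of liver cancer minus adult liver was -0.39. It was 0.29 on liver cancer 1, and -0.79 and -0.69 on liver cancer 2 and 3. The part of this shift in the differences of these probes was not tested. For the 3′ probe of Pgk1, fetal minus adult liver was -0.45 ± 0.28 (SE, exact permutation p = 0.1, limma adjusted p = 0.235). The first scan, which holds all 6 of these arrays, gave the same value with an SE of 0.13 and a limma adjusted p of 0.0238, under the 2-fold minimum for a call.

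**Figure D2:**
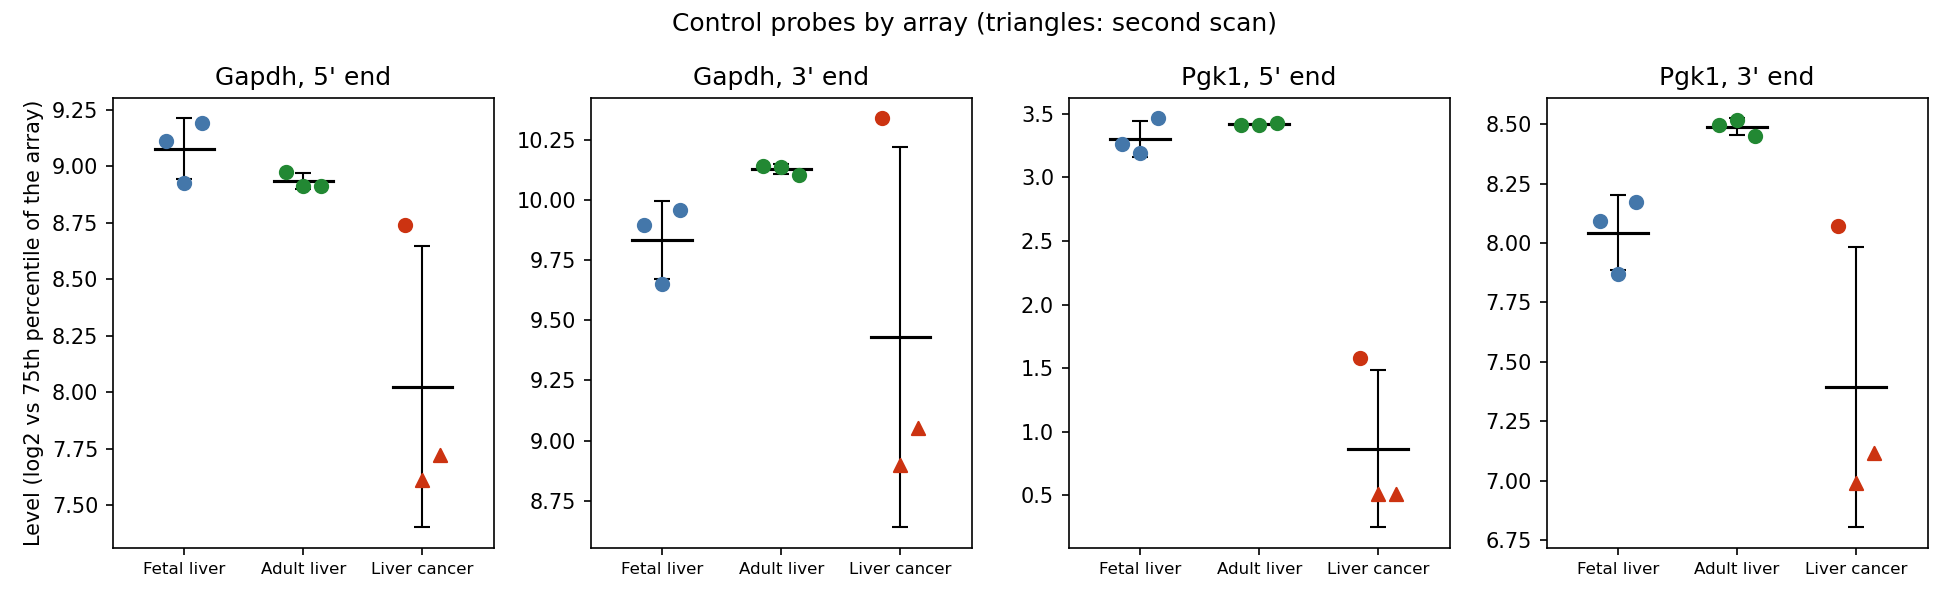
Levels of the 5′ and 3′ control probes of Gapdh and Pgk1 on each array (y axis, log2 relative to the array's 75th percentile, with a scale of its own in each panel) by group; circles are arrays of the first scan, triangles of the second, bars the mean ± SD of 3 arrays. The 5′ probe of Pgk1 is between 3.19 and 3.46 in the 6 fetal and adult livers and between 0.51 and 1.58 in the 3 tumours.

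The signal of the 3′ end over the 5′ end within an array does not depend on the scaling between arrays. The labelling protocol used a T7 promoter primer, and in labelling of this kind copying starts at the 3′ end of the RNA, so that the ratio of the ends is in common use as a sign of RNA integrity. The size of the ratio also contains the brightness of both probes, and its groups alone are compared. For Pgk1 the 3′ signal was 28.5, 25.6 and 26.1 times the 5′ signal in the fetal livers, 34.0, 34.5 and 32.6 times in the adult livers, and 89.8, 89.3 and 97.7 times in the tumours. The 3 groups did not overlap, and the tumour of the first scan lay beside those of the second. On the log2 scale the means were 4.74 ± 0.08 (SD, n = 3), 5.07 ± 0.04 and 6.53 ± 0.07. Liver cancer exceeded adult liver by 1.45 (1.42 within the first scan) and fetal liver by 1.79, and fetal liver was below adult liver by 0.33 (exact permutation p = 0.1 for each of the 3 comparisons over all arrays).

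Gapdh showed the same order of groups with smaller steps. Its 3′ end exceeded its 5′ end by 0.76 ± 0.03 (SD, n = 3) in the fetal livers, 1.20 ± 0.03 in the adult livers and 1.41 ± 0.17 in the tumours, where the 3 arrays gave 1.60, 1.29 and 1.33. No 2 groups overlapped (exact permutation p = 0.1 for each). The step from adult liver to liver cancer was 0.21 over all arrays and 0.41 within the first scan. The part of RNA integrity in the differences of other probes between these groups was not tested.

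**Figure D3:**
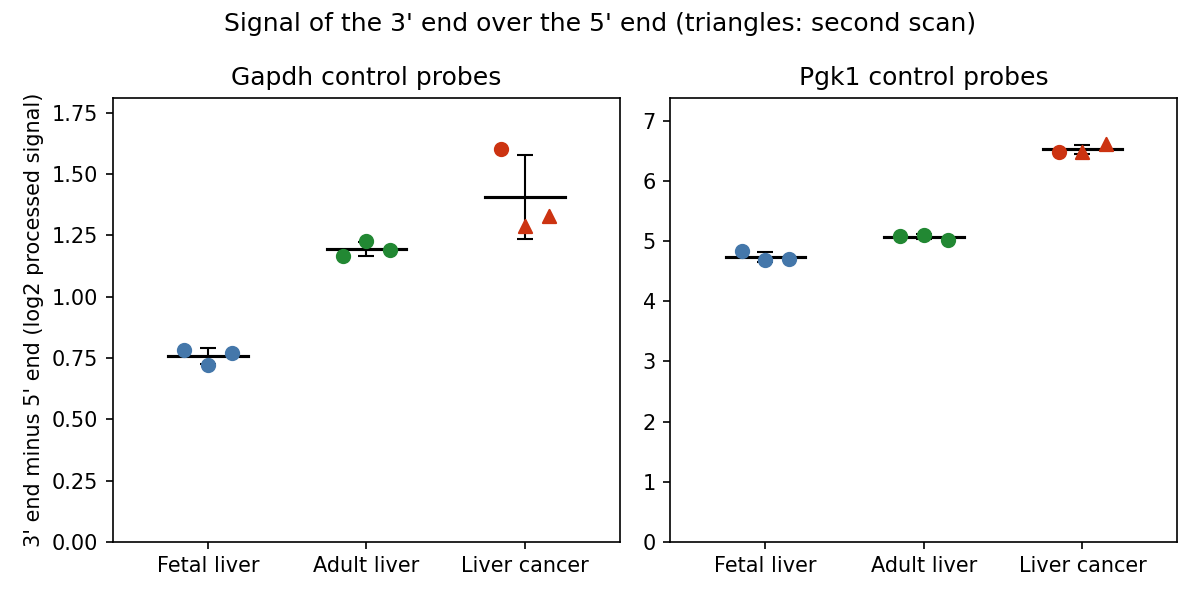
Log2 signal of the 3′ control probe minus the 5′ control probe on each array (y axis, starting at 0) for Gapdh and Pgk1 by group; circles are arrays of the first scan, triangles of the second, bars the mean ± SD of 3 arrays. For Pgk1 the tumours lie between 6.48 and 6.61, all above the adult livers at 5.03 to 5.11.

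G6pd2 was the gene with the clearest difference between fetal and adult liver. Its probe read 2.19, 2.05 and 2.25 in the fetal livers, -0.29, -0.36 and -0.46 in the adult livers, and 0.39, 0.30 and 0.16 in the tumours. The 3 groups lay apart, with fetal liver highest, liver cancer next and adult liver lowest. Fetal liver was 5.77-fold higher than adult liver (log2 difference 2.53 ± 0.17 (SE, n = 3 per group), limma adjusted p = 3.24e-06). Liver cancer was 3.68-fold lower than fetal liver (-1.88 ± 0.17, limma adjusted p = 2.05e-05), and -1.77 ± 0.17 within the first scan (limma adjusted p = 0.000322). Both calls were kept under every alternative run, with differences from 1.65 to 2.59 and from -2.25 to -1.24.

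The smaller step between adult liver and liver cancer was 0.65 ± 0.17 log2, or 1.57-fold (limma adjusted p = 0.021), which misses the 2-fold minimum set for a call. It was 0.76 ± 0.17 within the first scan (limma adjusted p = 0.0228). The adjusted p also rose above 0.05 under other settings. The step was 0.37 with array median scaling (limma adjusted p = 0.298) and 0.41 with normexp (limma adjusted p = 0.144), and the unfiltered table gave a limma adjusted p of 0.0704. Unmarked spots on the left side of the array gave 0.51 (limma adjusted p = 0.0771) and those on the right 0.73 (limma adjusted p = 0.0102). On liver cancer 3 the unmarked spots averaged -0.14 on the left and 0.36 on the right. On liver cancer 2 they averaged 0.23 and 0.32, with 4 spots left unmarked on the left. G6pd2 and G6pdx have similar coding sequences and signal from G6pdx RNA was not separated, so the probe may read both.

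Few other genes of glucose metabolism and few cell markers could be named on the array. Of a list of 45 genes of glycolysis, glucose synthesis and the pentose phosphate pathway, the 4 described here were the ones with a named probe, and of 56 cell type and proliferation markers 4 were named. Tfrc, the transferrin receptor that erythroid cells carry at high levels, followed a pattern like G6pd2. It lay between 9.68 and 9.79 in the fetal livers, 6.71 and 6.79 in the adult livers, and 7.73 and 8.67 in the tumours. Tuba1b, a tubulin listed for proliferation, lay between 10.31 and 10.70, 7.11 and 7.35, and 7.84 and 9.55 in the same order. Gk, glycerol kinase, listed for hepatocytes, lay between -0.91 and -0.60, 2.62 and 2.75, and 2.06 and 2.37, and B2m, listed for leukocytes and part of the class I complexes that present antigen, between 8.62 and 8.71, 10.30 and 10.33, and 9.60 and 10.45. The part of cell composition in the G6pd2 and Ldhal6b differences was not tested, and in bulk tissue fewer cells of a type and less RNA per cell cannot be told apart. Albumin, alpha-fetoprotein and other defining liver markers were not analysed here, since no probe could be identified for them.

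Ldhal6b was low in fetal liver, and its level in the tumours differed between arrays and, on those of the second scan, between spots. Its probe read -2.34, -2.43 and -2.44 in the fetal livers, 0.21, 0.04 and -0.35 in the adult livers, and -0.05, 2.18 and 1.37 in the tumours. Fetal liver lay below all other livers. Liver cancer 1 fell inside the adult range, and liver cancer 2 and 3 lay above it. Ldhal6b is named for its similarity to a lactate dehydrogenase gene. Signal from RNA of related genes was not separated, so the probe may read such RNA as well.

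Fetal liver was 5.18-fold lower than adult liver for Ldhal6b (-2.37 ± 0.48 (SE, n = 3 per group), limma adjusted p = 0.0027). With normexp background correction, which compresses differences of dim probes, the difference was -0.78 and did not pass (limma adjusted p = 0.237). Liver cancer was 11.9-fold higher than fetal liver (3.57 ± 0.48, limma adjusted p = 0.000213) and 2.35 ± 0.24 higher on the log2 scale within the first scan (limma adjusted p = 0.000412). With normexp this difference was 1.84 (limma adjusted p = 0.00305), and without liver cancer 1 it was 4.18. Liver cancer minus adult liver was 1.20 ± 0.48 (limma adjusted p = 0.0861) over all arrays and -0.02 ± 0.24 (limma adjusted p = 0.964) within the first scan. Without liver cancer 1 it was 1.81 and passed (limma adjusted p = 0.00113).

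The 20 spots of the Ldhal6b probe disagreed on the arrays of the second scan. An array has 164 columns of spots, and 8 of the 20 spots lie in the left part and 12 in the right part. With marked spots kept, the right median exceeded the left by 2.50 on liver cancer 2 and by 1.83 on liver cancer 3, against -0.20 to 0.48 on the 7 other arrays. The other 14 named custom probes differed between the sides by -0.10 to 0.64 on liver cancer 2 and by -0.24 to 0.65 on liver cancer 3, with G6pd2 the highest on both. Among probes of similar level with a single spot, the median on the right exceeded that on the left by 0.21 and 0.43 on these arrays.

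On liver cancer 2 the scanner software had marked 5 of the Ldhal6b spots as outliers. These lay at column 44 or lower and had processed signals of 58.2 to 341, whereas the unmarked spots lay at column 62 or higher and had signals of 1722 to 1952. The level of 2.18 above therefore comes from the unmarked spots alone. On liver cancer 3 no spot was marked, and signals ran from 184.7 to 2235. Over unmarked spots alone the right side exceeded the left by 0.07 on liver cancer 2, where 3 left spots remained, and by 1.65 on liver cancer 3. Liver cancer minus adult liver was then 0.98 from the left side (limma adjusted p = 0.152) and 1.34 from the right (limma adjusted p = 0.0813). By the median over all spots, marked ones included, it was 0.28 from the left (limma adjusted p = 0.434) and 1.51 from the right (limma adjusted p = 0.0635). Liver cancer minus fetal liver passed from either side, at 3.25 (limma adjusted p = 0.000419) and 3.78 (limma adjusted p = 0.000266) over unmarked spots. By the median over all spots the sides lay further apart, at 2.42 from the left (limma adjusted p = 5.37e-05) and 3.90 from the right (limma adjusted p = 0.000284).

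**Figure D4:**
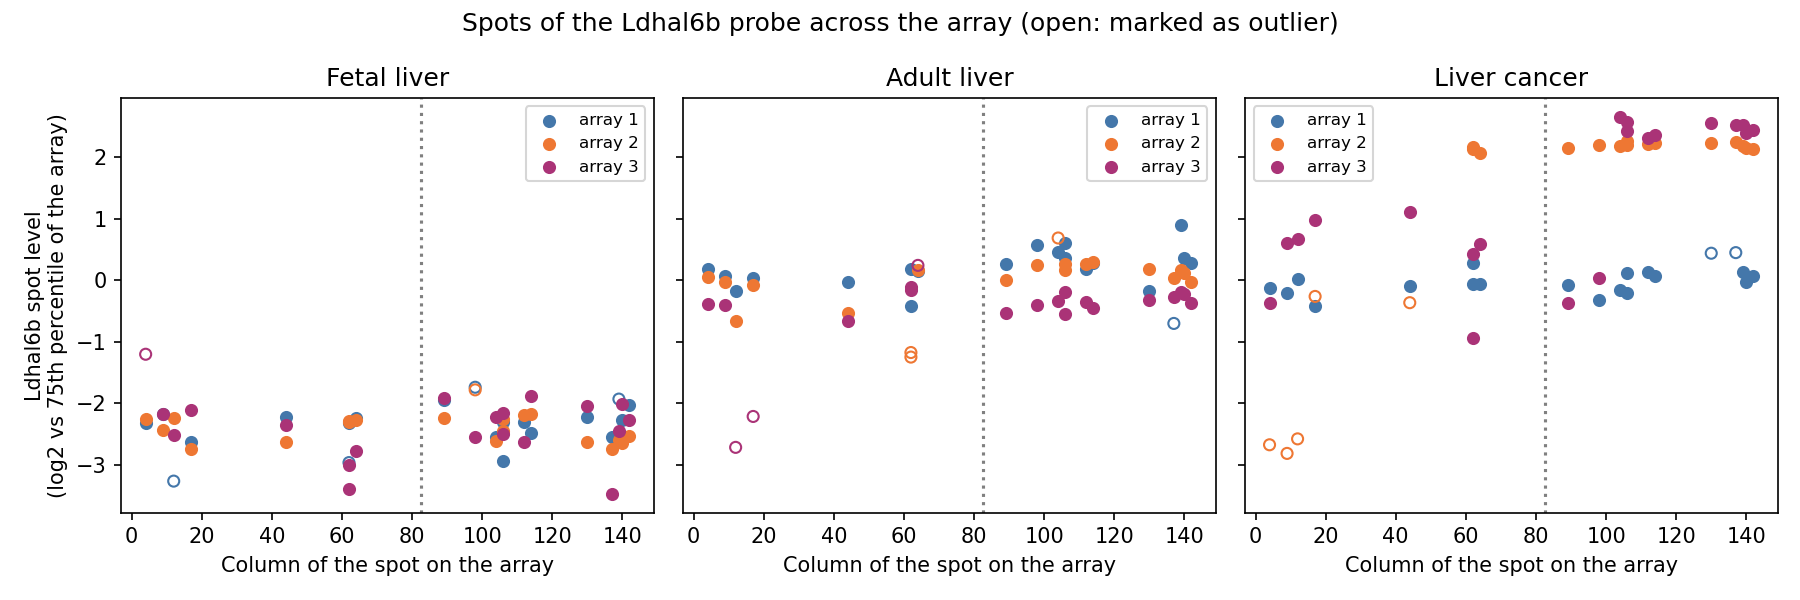
Level of each of the 20 Ldhal6b spots (y axis, log2 relative to the array's 75th percentile) against its column on the array (x axis), with 1 colour per array and 1 panel per group; open points were marked as outliers and the dotted line parts left from right. With marked spots kept, right medians exceed left medians by 2.50 on liver cancer 2 and 1.83 on liver cancer 3, and by at most 0.48 on the other arrays.

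Read against all 34103 tested probes, the members' counts were not unusual in number. A call is a limma adjusted p below 0.05 with at least a 2-fold change. Set against adult liver, fetal liver gave calls for 2 of the 3 custom probes, G6pd2 higher and Ldhal6b lower, and for 39.6% of all tested probes. The same 2 were called within the first scan, against 41.0% of tested probes, and all 3 had groups that did not overlap, as had 66.1% of tested probes. Between liver cancer and adult liver limma called 0 of the 3, with 2 at an unadjusted p below 0.05, where 24.1% of tested probes were called. Within the first scan it also called 0, with 1 at an unadjusted p below 0.05, against 18.1% of tested probes. Over all arrays G6pd2 alone had groups that did not overlap, as had 42.6% of tested probes. Between liver cancer and fetal liver 2 were called, Ldhal6b higher and G6pd2 lower, against 42.4% of tested probes. Within the first scan the same 2 were called against 38.4%, and the groups of these 2 did not overlap, as was so for 58.3% of tested probes. The 3 comparisons share arrays pairwise and are not independent.

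**Figure D5:**
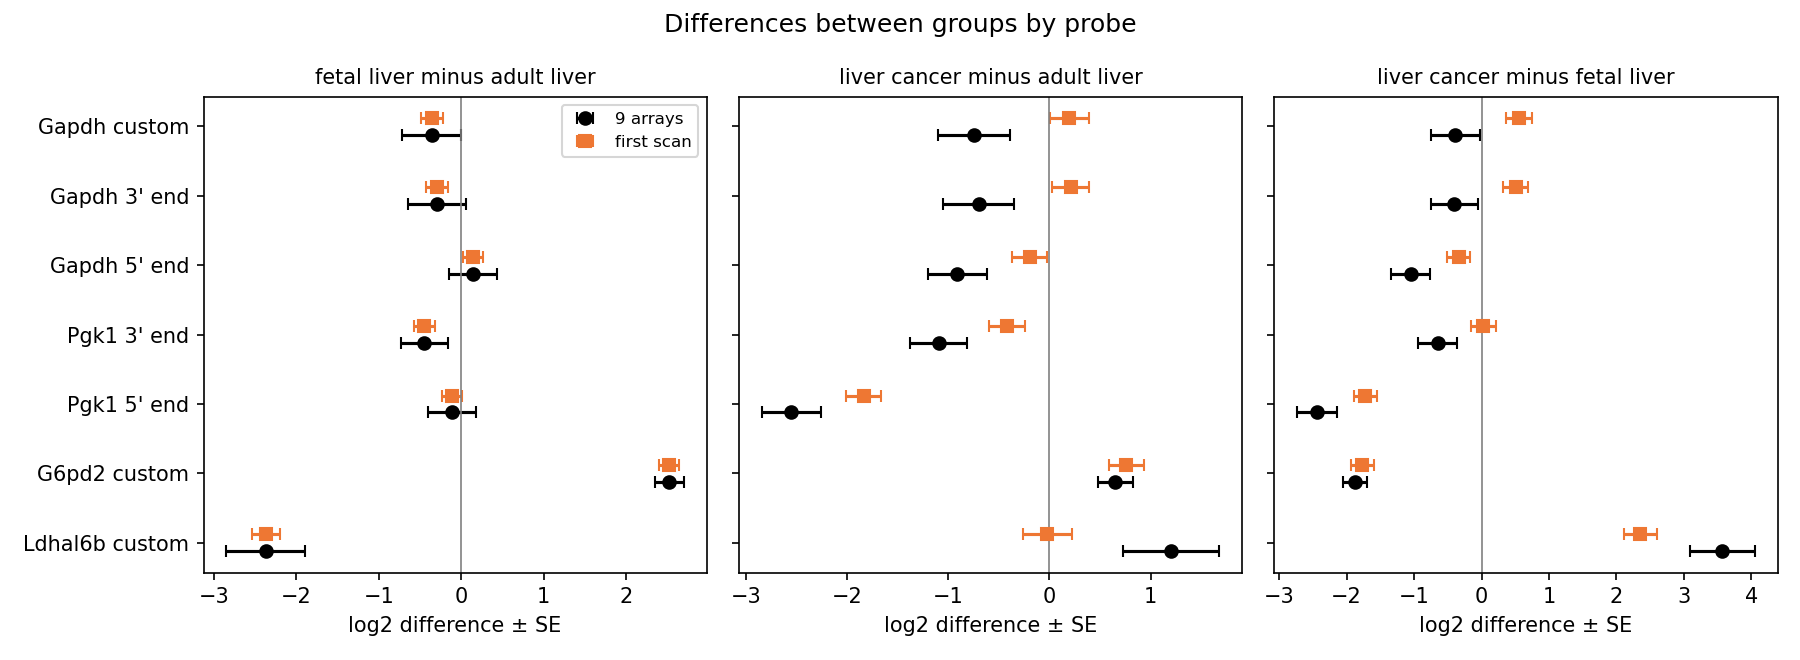
Log2 difference between groups ± SE from limma (x axis) for the 7 probes, over all 9 arrays (black circles) and within the first scan (orange squares), where liver cancer is 1 array; control probes were fitted in the table enlarged by them. The 5′ probe of Pgk1 stays below 0 in both comparisons with liver cancer (-2.55 and -1.83 against adult liver), whereas the Gapdh custom probe changes sign against adult liver (-0.75 and 0.20).

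By likeness of pattern, measured as the root mean square difference between centred levels over the 9 arrays among probes of a named mouse gene, Gapdh was closest to its own 3′ control probe (0.04) and then to Ppia (0.18), which encodes cyclophilin A. The 3′ control probe was likewise closest to the Gapdh custom probe and then to Ppia (0.15), and the 5′ control probe of Gapdh to Hprt (0.13) and then to the 3′ probe of Pgk1 (0.25). That 3′ probe of Pgk1 was closest to the Gapdh custom probe (0.19) and its 3′ control probe (0.19). The 5′ probe of Pgk1 had no such close match, with Hsp90ab1 at 0.58 and Nono at 0.60. G6pd2 was closest to the ribosomal protein gene Rpl13a (0.33) and to Tfrc (0.35). Ldhal6b was closest to Gk (0.87) and B2m (1.25). Among the other tested probes, named or not, 652 lay within 0.25 of Gapdh, 104 of G6pd2 and 0 of Ldhal6b, and 27 lay within 0.25 of the 5′ probe of Pgk1 against 532 of its 3′ probe.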

How the data were processed

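Liver RNA of 9 samples was labelled with Cy3, per the labels' protocols, and each sample was hybridised to 1 array of 62939 spots. The deposited intensity values were made by the authors with Agilent Feature Extraction 11.0.1.1, per the file headers, which subtracts background and does not scale arrays to each other. Deposited median intensities of spot and background were used for the normexp alternative alone (offset 50), since mean signals were not used here.

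The level of a probe was the mean log2 processed signal over its unmarked spots, less the 75th percentile of the array over 60915 non-control probes. A probe was tested if well above background on at least 3 arrays and usable on at least 2 per group, which left 34103. Groups were compared with limma 3.58.1 in R 4.3.3 (files read with the data.table package, version 1.17.8), with 1 mean per group and p-values adjusted by Benjamini-Hochberg over all tested probes; a call needed adjusted p below 0.05 and 2-fold. Control probes lie outside this set and were compared with exact two-sided permutation tests over arrays, whose smallest p is 0.1. Precision is limited by having 3 arrays per group.

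Tested on simulated data of 34103 probes, the fit called 5.97%, 64.2% and 74.2% of probes changed 2-fold, 4-fold and 8-fold between fetal and adult liver. Between liver cancer and adult liver it called 16.4%, 74.6% and 87.9%. Between liver cancer and fetal liver it called 7.46%, 59.7% and 83.3%. Each percentage rests on 66 or 67 changed probes. In each simulation 33903 probes were unchanged, whereas 39.6%, 24.1% and 42.4% of tested probes were called in the data. The adjustment of p-values is therefore stricter in the simulations than in the data. A 2-fold change also lies at the minimum for a call, which by itself limits how often it is called. The simulated percentages thus do not give the share of real changes that the comparisons would call. In all 3 simulations a probe had the same spread in every group, pooled over the groups, and no scan effect. The simulated percentages therefore do not rank the comparisons, and a wider spread in liver cancer was not simulated. All members were named, called or not, with the 2 probes of named genes most like each. The members and lists were chosen with earlier results of these data known. The comparison of spots by side of the array, and limma within the first scan for control probes, were chosen after seeing the data. Promoter letters came from RefSeq (GRCm38.p6), and figures from Python 3.11.15 with matplotlib 3.10.9, numpy 2.4.6 and pandas 2.3.3.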

Additional observations from a re-analysis of the deposited data

Results flagged for a closer look

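The array also carries control probes designed for human and rat GAPDH and PGK1, which no comparison above uses, and 7 of the 8 gave signal well above background on all 9 arrays of mouse RNA. The smallest gap on any array to the highest negative control probe was 11.97 log2 for the human GAPDH 3′ probe, 7.49 for its 5′ probe, 10.18 for the human PGK1 3′ probe and 2.90 for its 5′ probe. For the rat probes it was 7.03 (GAPDH 3′), 8.67 (GAPDH 5′), 0.28 (PGK1 3′) and 4.38 (PGK1 5′). The rat PGK1 3′ probe was well above background on 2 arrays.

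Liver cancer minus adult liver was -2.05 and -2.70 for the human 5′ probes of GAPDH and PGK1, and -1.55 and -2.58 for the rat ones. On liver cancer 1 alone, the array of the first scan, these differences were -1.04, -1.91, -1.30 and -1.82. The 3′ probes differed by -0.27 (human GAPDH), -0.74 (human PGK1), 0.24 (rat GAPDH) and -0.39 (rat PGK1). On liver cancer 1 alone the 3′ differences were 0.13, -0.28, -0.11 and -1.26 in the same order. These differences were not tested.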

How the results depend on the processing

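G6pd2 kept its direction, and its calls between fetal liver and the other groups, under every alternative. Its step from adult liver to liver cancer (0.65) was called with no minimum fold, and ranged from 0.34 to 0.78 over the alternatives. For Gapdh, fetal minus adult liver turned to 0.18 under quantile normalization. Its liver cancer minus adult liver turned to 0.20 with scan as a block or within the first scan, and was called at -1.15 with array weights (limma adjusted p = 0.00116). Its liver cancer minus fetal liver turned to 0.55 in both scan settings and 0.23 with normexp. For Ldhal6b, fetal minus adult liver was lost with normexp (-0.78), and liver cancer minus adult liver turned to -0.0202 in both scan settings and was called at 1.69 with array weights (limma adjusted p = 0.00137). With 1 array left out, liver cancer minus adult liver ranged from -1.22 to -0.48 for Gapdh and from 0.69 to 1.81 for Ldhal6b, and both were called without liver cancer 1 alone.

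Within the first scan, liver cancer minus adult liver was -0.20, 0.21, -1.83 and -0.42 for the control probes Gapdh 5′, Gapdh 3′, Pgk1 5′ and Pgk1 3′, and 0.41 for the 3′ minus 5′ difference of Gapdh. Against fetal liver these values were -0.34, 0.51, -1.72, 0.03 and 0.84. With normexp, the Gapdh 3′ probe turned to 0.19 against fetal liver, and the tumours no longer lay apart at the Gapdh 5′ probe (-0.38 and -0.47, exact permutation p = 0.2 and 0.3) or, against adult liver, at the Pgk1 3′ probe (-0.61, exact permutation p = 0.2). With the control probes in the limma table, liver cancer minus adult liver passed at -2.55 (Pgk1 5′) and -1.10 (Pgk1 3′), and liver cancer minus fetal liver at -1.05 (Gapdh 5′) and -2.44 (Pgk1 5′); within the first scan the Pgk1 5′ probe passed at -1.83 and -1.72. There the Gapdh 3′ probe turned to 0.21 and 0.51, and the Pgk1 3′ probe turned to 0.0272 against fetal liver.

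Fetal against adult liver, 5949 probes were called with normexp in place of 13489. With the filter to probes above background on all arrays, which tests fewer probes, 7189, 4558 and 7846 were called in place of 13489, 8205 and 14462 (fetal against adult liver, liver cancer against adult liver, liver cancer against fetal liver). The replicate numbers did not pair the samples: correlations of same-numbered deviations ran from -0.16 to 0.31. With a replicate block, no call of a custom probe changed and 13584, 8439 and 14658 probes were called. Where no cause is given here, the cause was not tested. With scan as a block, liver cancer is compared through replicate 1 alone, and the number of arrays and the signal over background of dim probes such as Ldhal6b limit what can be seen.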
